A study of Mus musculus with 4 samples.

Results

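The solute carrier (SLC) genes described here are the 122 genes out of 18193 named genes on the array whose symbol is SLC followed by a family number and whose mean signal over 4 Affymetrix arrays of mouse keratinocytes was at least 100 units (MAS5 signal, the linear summary that the Affymetrix software gives for a probe set), leaving out Slc7a11 and Slc45a2. Of the 345 SLC symbols on the array, 223 fell short of that limit, 138 of them below a floor of 24.9 units and 85 between the floor and the limit. The floor is the median over probe sets of their mean signal, and lower values were raised to it before taking log2. Each gene is read from its brightest probe set that carries that symbol alone. The measured signal itself therefore chose the genes, and their level is a description. The nearest genes outside the limit were Slc29a4, Slc39a13 and Slc49a4 at means of 97.5, 97.4 and 92.9 units, and the nearest inside were Slc2a5, Slc7a6os and Slc29a1 at 100.4, 101.0 and 103 units. Slc29a4 read 119, 87.5, 128 and 55.0 units on the 4 arrays, Slc39a13 112, 26.8, 157 and 93.5 units, and Slc49a4 123, 59.8, 115 and 73.8 units, in the order unirradiated wild type (WT), irradiated WT, unirradiated knockout-labelled (KO-labelled) and irradiated KO-labelled. Slc29a1 read 134, 76.4, 138 and 64.9 units. The 122 genes belong to 34 families, and 119 are carriers by name. The other 3 only carry the letters: Slc9a3r1 encodes the scaffold NHERF1, Slc4a1ap encodes kanadaptin, and Slc7a6os is named for its place opposite Slc7a6. All 122 were found in RefSeq by gene ID, and 44 have 1 probe set. The mitochondrial family Slc25 gave 28 genes of 44 on the array, the nucleotide sugar family Slc35 gave 16 of 26, and the zinc families Slc39 and Slc30 gave 8 of 14 and 7 of 10.

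Solute carriers are membrane proteins that move amino acids, sugars, metals, nucleotides and other small molecules across the plasma membrane and the membranes of organelles. Some exchange one solute for another, some use the sodium gradient set by the sodium-potassium ATPase, and some are facilitative carriers that let a solute run down its own gradient. In keratinocytes, the epithelial cells of the epidermis, they supply glucose, amino acids and ions to dividing basal cells, and mutations in a zinc carrier and a fatty acid carrier are known causes of skin disease.

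The cells were primary keratinocytes of newborn C57BL/6 mice, either WT or labelled as knockout for p38alpha, a stress-activated kinase encoded by Mapk14. Each genotype was measured unirradiated and 4 h after ultraviolet B (UVB) at 75 mJ/cm2, with 1 Affymetrix array for each of the 4 groups. No group is labelled as mock-treated at 4 h, and the labels are silent on the number of animals per culture and on what drove the deletion. The KO descriptions carry the code K14C, which the labels do not expand. Values on the 4 arrays are given throughout in the order named above.

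The brightest Mapk14 probe set did not read lower in the KO-labelled cells, at 985, 293, 1449 and 647 units, so genotype directions rest on the labels. The basal keratins Krt5 and Krt14 read at least 11820.1 units on every array. Median signal over all probe sets was 30.3, 18.7, 34.5 and 18.7 units, and signal after UVB was lower for most genes. Among the 7549 genes with a mean of at least 100 units, the same limit as for the SLC genes, the median log2 difference after UVB was -0.74 for WT and -0.82 for KO-labelled cells. It moved to 0.02 and 0.03 when the 4 arrays were quantile normalised, and to 0.33 and 0.31 when each array was divided by its median. A UVB difference between -0.74 and -0.82 therefore lies at the middle of these genes. For this reason many limma UVB effects are printed with their value after quantile normalisation (marked quantile). An effect or fall printed without that value describes the deposited values alone. Pairwise differences have no test. An additive limma fit of irradiation and genotype over 11379 genes has 1 residual degree of freedom, which is how far the responses of the 2 genotypes differ. Limma draws each gene's variance toward that of genes of similar signal, with a median prior weight of 8.13 degrees of freedom. The standard error (SE) and adjusted p therefore rest mostly on such differences pooled over genes, not on the spread between cultures. Fell and rose mark an adjusted p below 0.05 in that fit on the deposited values. Signals of different probe sets were not set against each other, because probes differ in how they bind.

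Upstream sequence from RefSeq (GRCm38.p6) is shown for 5 SLC genes that the results turn on. They are the gene with the largest UVB fall, a phosphate carrier that fell, the plasma membrane zinc exporter, the carrier with the largest genotype difference in response, and a carrier that was lower in KO-labelled cells. Each run covers the 250 bases before a listed start, read 5′ to 3′ on the gene's strand, and positions count back from the start. Slc22a23 (chr13:34345219-34345468, minus strand) has the core of a metal response element in capitals at -119 to -113, on the strand opposite the gene. Slc20a1 (chr2:129198523-129198772, plus strand, the first of 2 listed starts) has CACGTG at -175 to -170 and at -22 to -17. The window of its other listed start has no CACGTG. Slc30a1 (chr1:191906531-191906780, plus strand) has a metal response element core at -43 to -37, also on the opposite strand. Slc25a25 (chr2:32424067-32424316, minus strand, the last of 3 listed starts) has TGACGTCA, the full cyclic AMP response element, at -150 to -143. The windows of its other listed starts have no TGACGTCA. Slc6a14 (chrX:21714650-21714899, plus strand) has the AP-1 element TGAGTCA at -82 to -76.
Slc22a23: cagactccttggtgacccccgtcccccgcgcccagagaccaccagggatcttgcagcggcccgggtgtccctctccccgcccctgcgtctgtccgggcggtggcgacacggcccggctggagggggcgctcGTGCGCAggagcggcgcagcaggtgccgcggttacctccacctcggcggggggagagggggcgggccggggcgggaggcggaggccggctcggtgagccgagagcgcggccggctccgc
Slc20a1: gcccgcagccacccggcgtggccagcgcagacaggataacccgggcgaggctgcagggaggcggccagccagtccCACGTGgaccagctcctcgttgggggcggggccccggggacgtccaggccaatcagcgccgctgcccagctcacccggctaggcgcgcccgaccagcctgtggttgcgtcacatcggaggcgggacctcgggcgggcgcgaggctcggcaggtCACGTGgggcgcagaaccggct
Slc30a1: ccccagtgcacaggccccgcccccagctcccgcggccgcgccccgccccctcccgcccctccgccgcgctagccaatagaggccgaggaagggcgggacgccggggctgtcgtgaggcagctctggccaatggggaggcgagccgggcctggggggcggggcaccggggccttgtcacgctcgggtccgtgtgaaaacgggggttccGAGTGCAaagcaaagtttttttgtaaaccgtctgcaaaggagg
Slc25a25: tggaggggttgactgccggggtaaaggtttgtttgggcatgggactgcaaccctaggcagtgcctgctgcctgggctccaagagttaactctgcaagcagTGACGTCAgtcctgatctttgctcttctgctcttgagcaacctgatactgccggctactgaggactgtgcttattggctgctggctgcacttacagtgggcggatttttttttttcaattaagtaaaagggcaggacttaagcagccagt
Slc6a14: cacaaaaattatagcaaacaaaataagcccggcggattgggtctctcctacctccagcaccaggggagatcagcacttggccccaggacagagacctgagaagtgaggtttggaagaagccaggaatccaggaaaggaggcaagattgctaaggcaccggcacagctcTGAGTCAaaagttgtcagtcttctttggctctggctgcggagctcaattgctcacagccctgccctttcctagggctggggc
Promoter windows of 250 bases before to 50 after the start were listed for 95 of the 122 genes, 131 windows in all, and motifs were searched on both strands. The metal response element core, as TGCACNC or TGCGCNC, was in 42.0% of the SLC windows, 25.7% of all 32851 windows and 36.9% of the 7949 windows of genes at or above 100 units. CACGTG was in 14.5%, 7.15% and 10.7% of them, TGACGTCA in 1.53%, 1.79% and 3.27%, and TGANTCA in 4.58%, 7.81% and 5.01%. The amino acid response element form TGATGNAA was in 1.53% of the SLC windows, against 3.97% and 2.18%. The TATA box letters TATAAA were in 6.11%, 13.6% and 6.92%, and CCAAT in 35.1%, 37.4% and 37.5%. No motif searched contains another. Median GC content was 61.7% in the SLC windows, 52.7% in all windows and 61.7% in those of genes at or above 100 units. A match is a description of these letters and not of a bound site.

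After UVB, SLC signal was lower almost throughout, as it was for most genes above the same limit. The median signal of the 122 genes was 293, 153, 320.2 and 165 units. The log2 difference after UVB was below 0 for 116 genes in WT and 120 in KO-labelled cells, with medians of -0.83 and -0.85, and the medians were -0.04 and 0.10 after quantile normalisation. In WT, 55 genes (45.1%) were at least 2-fold lower, against 36.5% of genes at or above 100 units and 34.8% of all genes tested. In KO-labelled cells 47 (38.5%) passed that fold, against 39.8% and 39.3%. Between the genotypes, 41 SLC genes were 2-fold lower in both, 14 in WT alone and 6 in KO-labelled cells alone. This split was not counted over other genes, so it is not read as a trait of the SLC genes. None was 2-fold higher in either genotype, where 0.53% of genes at or above 100 units in WT and 0.106% in KO-labelled cells were (0.58% and 0.167% of all genes tested).

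In the limma fit 99 SLC genes (81.1%) fell, against 78.2% of genes at or above 100 units and 69.4% of all genes tested, and 0 rose, against 0.755% and 0.703%. At an unadjusted limma p below 0.05, 101 were lower (82.8%, against 80% of genes at or above 100 units and 72% of all tested) and 0 were higher (against 0.848% and 0.791%). The count of falls depended on the scaling. After quantile normalisation 22 SLC genes were lower (18%, against 26% at or above 100 units and 20.9% of all tested) and 29 higher (23.8%, against 25.1% and 20.8%). After median centring 18 were lower (14.8%, against 18% and 15.3%) and 49 higher (40.2%, against 46.4% and 36.7%). Under all 3 scalings 17 SLC genes fell (13.9%, against 18% of genes at or above 100 units and 15.3% of all genes tested) and 0 rose. These 17 were Slc7a1 and Slc38a2 among amino acid carriers, Slc2a1 for glucose, Slc20a1, Slc20a2 and Slc26a2 for phosphate and sulfate, Slc30a5, Slc30a6 and Slc40a1 for zinc and iron, Slc25a30, Slc25a37 and Slc25a48 of mitochondria, and Slc15a4, Slc22a23, Slc33a1, Slc66a2 and Slc4a1ap.

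A gene that was dim after UVB could pass the signal limit on its unirradiated signal alone. All 122 genes read at least 100 units on both unirradiated arrays, 84 did in irradiated WT and 90 in irradiated KO-labelled cells, and 77 did on all 4. The mean of the irradiated arrays was below 100 units for 35 SLC genes (28.7%), against 19.9% of all genes at or above the limit, and the mean of the unirradiated arrays for 0. Slc22a23, Slc26a2, Slc4a1ap, Slc33a1, Slc40a1, Slc20a2, Slc25a32 and Slc35b4, among the largest falls below, are in the 35. They passed the limit through their unirradiated signal.

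The counts by class that follow stand beside that background of 78.2% falls as deposited, and beside 26% lower and 25.1% higher calls after quantile normalisation.

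**Figure D1:**
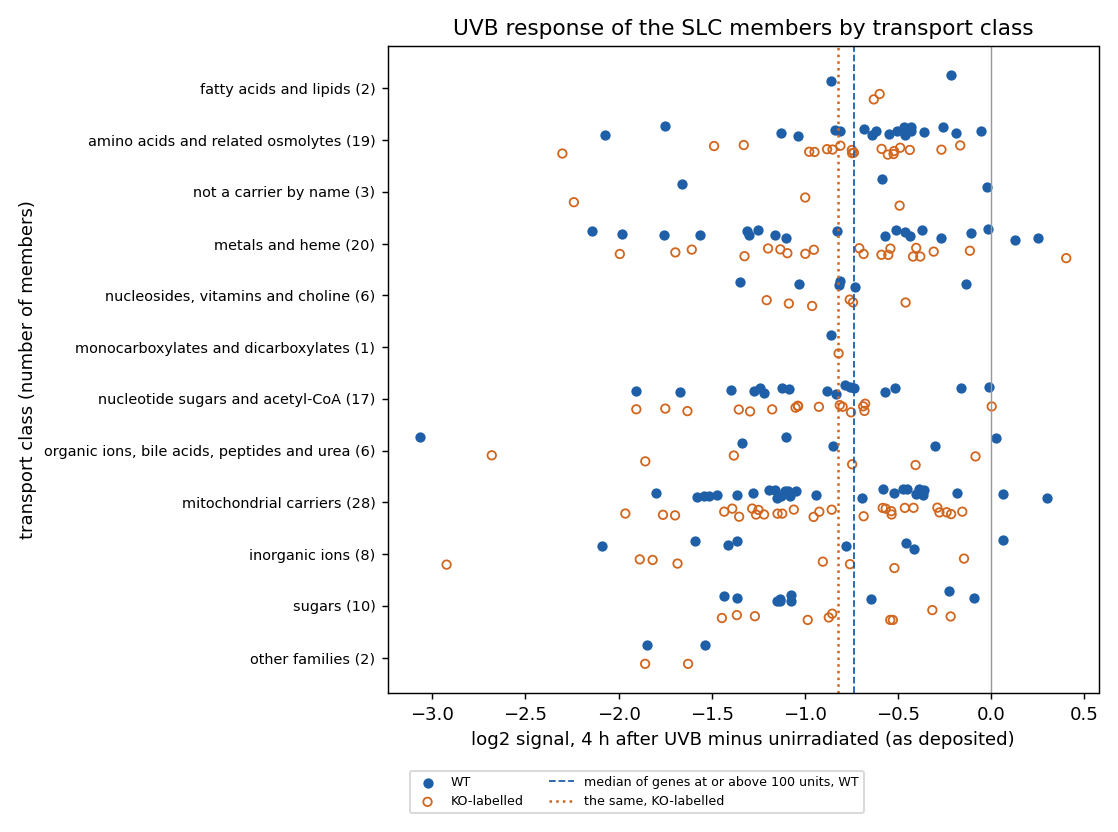
The log2 difference in signal 4 h after UVB is plotted on the x axis for each of the 122 SLC genes, grouped on the y axis by what they carry, with filled points for WT and open points for KO-labelled cells, and vertical lines at the medians of the 7549 genes at or above 100 units. Points spread on both sides of these medians in every class with more than 3 genes, and 6 WT and 2 KO-labelled points lie above 0.

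Carriers of organic ions and peptides held the largest fall. Slc22a23, a member of the organic ion family whose substrate is not settled, read 697, 83.4, 645 and 101 units, so both irradiated arrays lay far below both unirradiated ones. After UVB the signal was lower, by factors of 8.36 (WT) and 6.41 (KO-labelled), with a limma log2 effect of -2.87 ± 0.16 (SE, adjusted p = 3.0e-06) and -1.89 after quantile normalisation. Of the lysosomal carriers of peptides and histidine, Slc15a4 read 285, 113, 346 and 95.5 units and fell by 1.60 ± 0.18 (adjusted p = 6.5e-05, quantile -0.55), while Slc15a3 read 2184, 2224, 2039.6 and 1924 units, a UVB difference of 0.03 and -0.08 in the 2 genotypes. In the bile acid family, the sulfated steroid carrier Slc10a6 fell, at 490.1, 229, 389 and 149 units, and Slc10a3 did not pass, at 278, 226, 217 and 164 units. In all, 4 of the 6 genes of this class fell, 2 of them under all 3 scalings, and after quantile normalisation 2 were lower and 2 higher. The remaining gene of the class, Slc10a7, had an effect of -0.80.

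Among 8 inorganic ion carriers, 7 fell, 3 of them under all 3 scalings, and the class medians were -1.07 in WT and -1.29 in KO-labelled cells, or -0.27 and -0.25 after quantile normalisation, where 3 were lower and 2 higher. The sulfate carrier Slc26a2 read 163, 38.2, 196 and 25.9 units, and its limma effect was -2.51 ± 0.26 (adjusted p = 3.2e-05), -1.50 after quantile normalisation. Both phosphate carriers of the PiT type fell. Slc20a1 (PiT1), with CACGTG at 2 places before the first of its listed starts, read 1870.1, 727, 1944 and 526 units. Slc20a2 (PiT2) read 282, 93.8, 268 and 76.0 units. Their effects were -1.62 ± 0.14 (quantile -1.01) and -1.70 ± 0.18 (quantile -0.63). Slc41a1, a magnesium carrier, read 240.0, 90.3, 209 and 64.9 units and fell on the deposited values with an effect of -1.55 ± 0.19, and -0.46 after quantile normalisation (adjusted p = 0.077).

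Carriers of the Slc12 and Slc4 families had smaller effects. The sodium-potassium-chloride cotransporter Slc12a2 (NKCC1) read 1005, 587, 794 and 469 units, and the potassium-chloride cotransporter Slc12a4 (KCC1) 132, 138, 176 and 159 units. Slc12a2 fell by 0.77 ± 0.11 (quantile -0.06) and Slc12a4 did not pass (-0.04 ± 0.18, adjusted p = 0.84), while after quantile normalisation Slc12a4 stood at 1.001. The anion exchanger Slc4a2 (AE2) read 224, 168, 319 and 223 units and Slc4a11 286, 208, 316 and 169 units, and both fell, by 0.47 ± 0.15 (quantile 0.51) and 0.68 ± 0.17 (quantile 0.30). The irradiated arrays of Slc12a2, Slc4a2 and Slc4a11 lay below their unirradiated arrays, while those of Slc12a4 overlapped.

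Sodium-coupled carriers depend on the sodium-potassium ATPase. Of 8 subunit and regulator genes listed for it, 5 were matched on the array, and none of these is a catalytic alpha subunit. Of the 4 tested 2 fell, Atp1b1 at 209, 125, 204 and 93.7 units (quantile 0.14) and Atp1b3 at 2348, 1494, 2285 and 1286 units (quantile -0.27). The regulator Fxyd3 read 3102, 3193, 2979.8 and 2818 units, with little difference between arrays as deposited (quantile 0.33).

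Of the 7 zinc carriers of the Slc30 family, 5 fell. The ZnT5 and ZnT6 proteins, encoded by Slc30a5 and Slc30a6, form a pair that loads zinc into the secretory pathway. Slc30a5 read 444, 132, 549 and 138 units and Slc30a6 463, 117, 534 and 165 units, and their effects were -1.87 ± 0.15 and -1.84 ± 0.15 (adjusted p = 1.0e-05 and 1.1e-05), with -0.89 and -0.86 after quantile normalisation. Slc30a4, another vesicular zinc carrier, read 522, 211, 551 and 251 units and fell. Slc30a1 (ZnT1), the plasma membrane zinc exporter whose upstream sequence is printed above, read 275, 327, 366 and 274 units, higher after UVB in WT (0.25) and lower in KO-labelled cells (-0.42), and did not pass (-0.08 ± 0.18, quantile 0.82). Its other probe set, at a mean of 92.8 units, read -0.13 and -0.87, so the WT direction was not shared.

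On the import side, 5 of 8 ZIP carriers of the Slc39 family fell and 0 did so under all 3 scalings. Slc39a1 (ZIP1) was the SLC gene with the highest limma effect, 0.26 ± 0.14 (adjusted p = 0.13), at 285, 311, 309.9 and 409.8 units, and the effect was 1.15 after quantile normalisation. It was higher in WT and in KO-labelled cells, at 0.13 and 0.40. Slc39a6 (ZIP6) read 1882, 1322, 2369 and 1629 units, Slc39a7 (ZIP7), which releases zinc from the endoplasmic reticulum, 1085, 731, 1144 and 760.4 units, and Slc39a10 290.1, 118, 363 and 182 units. All 3 fell, by 0.53 ± 0.10 (quantile -0.04), 0.58 ± 0.11 (quantile 0.06) and 1.15 ± 0.16 (quantile -0.13).

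Slc39a8 (ZIP8), which also carries manganese, read 274, 271, 181 and 137 units and Slc39a11 253, 235, 364 and 294 units, and neither passed for UVB. The metallothioneins Mt1 and Mt2, which bind zinc and are driven by the zinc sensor Mtf1, read 7281, 7612, 6853 and 6163 units and 6672, 7149, 6242 and 6778 units. Neither passed, while Mtf1 itself fell on the deposited values, at 179.6, 54.0, 151 and 74.6 units. After quantile normalisation Mtf1 stood at -0.28 and no longer passed (limma adjusted p = 0.38). Mt1 then stood at 0.11 (adjusted p = 0.26) and Mt2 at 0.28, higher at an adjusted p of 0.0087.

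Genes of iron and copper transport fell in part. Slc40a1, which encodes ferroportin, the iron exporter, read 427, 96.8, 262 and 86.0 units, an effect of -1.87 ± 0.19 (adjusted p = 2.8e-05) and -0.82 after quantile normalisation. Ireb2, which encodes an iron-regulatory protein, read 396, 98.1, 394 and 91.7 units and fell by 2.06 ± 0.16 (quantile -1.01). Atp7a, the copper-exporting ATPase, read 295, 54.5, 199 and 51.1 units and fell by 2.20 ± 0.20 (quantile -1.12). The ferritin gene Fth1 read 8100.2, 9416, 7313 and 7421 units and did not pass. The copper carrier gene Slc31a2 (CTR2) read 383, 129.6, 402 and 249.9 units and fell by 1.12 ± 0.21 (quantile -0.16). Of the 20 metal and heme carriers 14 fell, 3 of them under all 3 scalings, and after quantile normalisation 3 were lower and 8 higher. Of 9 other zinc and metal handling genes tested 5 fell and 0 rose, with 3 lower and 2 higher after quantile normalisation. The remaining 8 genes of the class had effects between -1.22 (Slc39a3) and -0.29 (Slc30a3), and 6 fell.

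Sugar carriers fell in 8 of 10 cases, 1 of them under all 3 scalings, and after quantile normalisation 1 was lower and 2 higher. Slc2a1 (GLUT1), the main glucose carrier of basal keratinocytes, read 1983, 735, 1949 and 757 units, 2.70-fold and 2.58-fold lower after UVB, with an effect of -1.40 ± 0.10 (adjusted p = 6.9e-06) and -0.82 after quantile normalisation. Its other 2 probe sets, at 1069 and 733 units, gave -1.41 and -1.71 in WT and -1.47 and -1.81 in KO-labelled cells. Hk2, the hexokinase that traps glucose, read 509.9, 131, 532 and 111 units and fell by 2.11 ± 0.16 (quantile -1.12). Of the later glycolytic genes, Pgam1 and Pkm fell, by 0.45 ± 0.10 (quantile -0.08) and 0.24 ± 0.09 (quantile -0.03), and Aldoa, Pgk1 and Ldha did not pass. In all 7 of the 13 glucose use genes fell, and after quantile normalisation 1 was lower and 5 higher.

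Slc2a3 (GLUT3) read 367, 235, 242 and 132 units, Slc2a5, the fructose carrier GLUT5, 148, 67.4, 110.4 and 75.8 units, and the intracellular Slc2a8 (GLUT8) 104, 97.9, 146 and 125 units. The first 2 fell on the deposited values and Slc2a8 did not pass. The sodium-glucose carrier Slc5a1 (SGLT1) read 242, 115, 146 and 80.9 units and fell, with 0.10 after quantile normalisation. In the Slc37 family, Slc37a4, a glucose phosphate carrier of the endoplasmic reticulum, read 119, 53.8, 157 and 109 units and fell. Slc37a3 read 299, 116, 410.5 and 170.4 units and also fell. Slc50a1, of the SWEET family, read 218, 186, 295 and 237 units and did not pass. The lactate carrier Slc16a1 (MCT1) read 1844, 1015, 2066 and 1172 units and fell by 0.84 ± 0.10 (quantile -0.33), and its chaperone Bsg read 3517, 3031, 3395 and 2864 units and fell by 0.23 ± 0.09 (quantile 0.12). All 4 partner subunits tested, Bsg, Emb, Nptn and Slc9a3r1, fell. After quantile normalisation 0 of them were lower and Emb was higher, and after median centring all 4 were higher. The remaining 2 genes of the class had effects between -1.29 (Slc5a3) and -1.03 (Slc45a4), and both fell.

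Amino acid carriers fell in 16 of 19 cases, with medians of -0.55 (WT) and -0.75 (KO-labelled), but only Slc38a2 and Slc7a1 did so under all 3 scalings. After quantile normalisation 3 of the 19 were lower and 5 higher. Slc38a2 (SNAT2), the sodium-coupled carrier of small neutral amino acids, read 3633, 865, 3625 and 735 units, 4.20-fold and 4.93-fold lower, an effect of -2.19 ± 0.10 (adjusted p = 2.4e-06) and -1.68 after quantile normalisation. The arginine and lysine carrier Slc7a1 (CAT1) read 2118, 629, 2553 and 1017 units, with an effect of -1.54 ± 0.12 and -0.99 after quantile normalisation. Both unirradiated arrays lay above both irradiated ones for each. The related cationic carrier Slc7a3 (CAT3) read 559, 468, 623 and 556 units and did not pass (-0.21 ± 0.12, quantile 0.56), and Slc7a4 read 116, 86.3, 151 and 125 units.

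Of the 2 chains of the large neutral amino acid exchanger, the heavy chain passed on the deposited values. The light chain Slc7a5 (LAT1) read 1361, 1309.6, 1863 and 1376 units and did not pass (-0.25 ± 0.12, adjusted p = 0.089), and the heavy chain Slc3a2 (4F2hc) read 2668, 1738, 3071 and 1829 units and fell by 0.68 ± 0.10. After quantile normalisation they stood at 0.27 and -0.28. The difference between the 2 was not tested. The lysosomal glutamine carrier Slc38a7 read 130.5, 114, 200.3 and 102 units and the taurine carrier Slc6a6 267, 129.7, 209 and 143 units, and both fell on the deposited values. The remaining 9 genes of the class had effects between -1.04 (Slc36a4) and -0.44 (Slc6a9), and all fell.

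Of 18 genes of the amino acid response and of amino acid sensing, 14 fell and 0 rose on the deposited values, and after quantile normalisation 2 were lower and 2 higher. The transcription factor gene Atf4, which drives several of these carriers under amino acid shortage, read 3631, 2369.7, 4424 and 3378 units and fell by 0.50 ± 0.10 (quantile -0.17). Among its known targets, Chac1, which degrades glutathione, read 561, 144, 714 and 141 units and fell by 2.15 ± 0.15 (quantile -1.21), while Trib3 read 499, 418, 718 and 620.1 units and did not pass. Asns, the asparagine synthetase, read 3949, 3440.4, 4595 and 3826 units.

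Mitochondrial carriers were the largest class, with 28 genes, of which 24 fell and 3 did so under all 3 scalings. The medians were -1.06 in WT and -0.94 in KO-labelled cells, and -0.09 and -0.07 after quantile normalisation, where 6 were lower and 5 higher. The phosphate carrier Slc25a3 read 8885, 6711, 9222 and 7608 units and fell by 0.34 ± 0.08 (quantile -0.24), and the ADP-ATP exchanger Slc25a5 (ANT2) read 8040.0, 7084, 8136 and 7308 units and did not pass (-0.17 ± 0.08, quantile -0.06). Slc25a39, which imports glutathione, read 4045, 4219.5, 4575 and 3876 units and did not pass either. Its other 4 probe sets included 3 with a mean at or above the floor, and the 1 at 844 units was higher after UVB, by 0.78 in WT and 0.26 in KO-labelled cells.

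Other mitochondrial carriers had larger falls. Slc25a32, linked to folate and flavin import, read 156, 60.6, 231 and 59.3 units, an effect of -1.66 ± 0.22, and -0.57 after quantile normalisation (adjusted p = 0.059). Slc25a30 read 367, 129, 490.3 and 145 units and Slc25a48 857, 246, 757 and 280.3 units, with effects of -1.64 ± 0.15 (quantile -0.64) and -1.62 ± 0.14 (quantile -0.78), and both fell under all 3 scalings. The iron importers Slc25a37 (mitoferrin-1) and Slc25a28 (mitoferrin-2) read 228, 76.3, 286 and 88.3 units and 278, 115, 310.2 and 164 units, and Slc25a37 fell under all 3 scalings. The NAD carrier Slc25a51 read 980.2, 464, 1051 and 726 units and fell by 0.81 ± 0.14 (quantile -0.13). Of 9 genes for pyruvate, calcium and other entry to mitochondria, 6 fell, and after quantile normalisation 0 were lower and 3 higher. The pyruvate carrier subunit Mpc1 read 786, 837, 943 and 909 units and did not pass. The remaining 18 genes of the class had effects between -1.38 (Slc25a40) and -0.29 (Slc25a10), and 17 fell.

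Carriers of the Golgi and endoplasmic reticulum supply nucleotide sugars for glycosylation, and 15 of 17 in this class fell. After quantile normalisation 1 was lower and 2 higher. Slc33a1, which brings acetyl-CoA into the endoplasmic reticulum, read 305, 81.3, 294 and 78.6 units, an effect of -1.91 ± 0.17 (adjusted p = 1.6e-05), -0.84 after quantile normalisation, and it was the 1 gene of the class that fell under all 3 scalings. Slc35b4, a UDP-sugar carrier, read 168, 52.7, 196 and 63.4 units and fell by 1.65 ± 0.20, with -0.56 after quantile normalisation, where it no longer passed (adjusted p = 0.054). Slc35b1, which exchanges ATP and ADP across the endoplasmic reticulum, read 1272, 1137, 1305 and 1308 units and did not pass (-0.08 ± 0.11), with 0.48 after quantile normalisation.

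The UDP-N-acetylglucosamine carrier Slc35a3 read 684, 322, 689.8 and 333 units and Slc35a4 733, 494, 801 and 500.1 units. The GDP-fucose carrier Slc35c1 read 167, 76.5, 199.6 and 115 units, Slc35e1 321, 193, 429 and 209 units and Slc35e4 119, 118, 143 and 81.2 units. Slc35e4 did not pass, and its irradiated WT array was level with the unirradiated one while the irradiated KO-labelled array was the lowest. The other 4 named here fell on the deposited values. The remaining 9 genes of the class had effects between -1.57 (Slc35b3) and -0.60 (Slc35b2), and all fell.

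Carriers of nucleosides, vitamins and choline fell in 5 of 6 cases, 0 of them under all 3 scalings, and after quantile normalisation 0 were lower and 1 higher. The lysosomal nucleoside carrier Slc29a3 (ENT3) read 185, 72.8, 237 and 103 units and fell by 1.28 ± 0.18 (quantile -0.19). The choline carriers Slc44a1 and Slc44a2 read 935, 533, 985 and 582 units and 1068, 524, 1232 and 737 units, and the thiamine carrier Slc19a2, at 551, 503, 598 and 435 units, did not pass. The fatty acid carrier Slc27a4 (FATP4), needed for the epidermal barrier, read 267, 147, 248 and 161 units and fell, and Slc27a1 read 132, 114, 162 and 107 units and did not pass. In the Slc66 family, whose members sit in lysosomal and other inner membranes, Slc66a2 read 337, 93.9, 385 and 106 units and Slc66a1 223, 77.0, 206 and 66.8 units, with effects of -1.85 ± 0.16 (quantile -0.81) and -1.58 ± 0.18 (quantile -0.49). The remaining gene of the class, Slc19a1, had an effect of -0.85.

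Of the 3 genes that are not carriers by name, Slc4a1ap read 239.8, 76.0, 298 and 63.0 units and fell by 1.95 ± 0.20 (quantile -0.87), also under all 3 scalings. The scaffold gene Slc9a3r1 read 1153, 768, 1176 and 589 units and fell by 0.79 ± 0.13 (quantile -0.15), and Slc7a6os read 102, 101, 117 and 83.5 units and did not pass. The 122 genes have 108 further probe sets with a mean at or above the floor. Of these, 94 had the same sign of UVB difference as the chosen one in both genotypes. The count says little by itself, as 89.9% of all genes tested in WT and 93.7% in KO-labelled cells had a UVB difference below 0. The median absolute difference from the chosen probe set came to 0.29 in WT and 0.28 with the KO label. In 3 genes another probe set differed by at least 1 in both genotypes. For Slc25a15, the ornithine carrier, it read -2.07 and -1.67 against -0.58 and -0.58. For Slc38a2 a dimmer probe set, at a mean of 53.0 units, read -0.70 and -1.19. For Slc26a2 a probe set at 29 units, whose irradiated KO-labelled signal lay below the floor, read -0.21 and -0.61, while another at 77.1 units read -1.80 and -1.56.

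**Figure D2:**
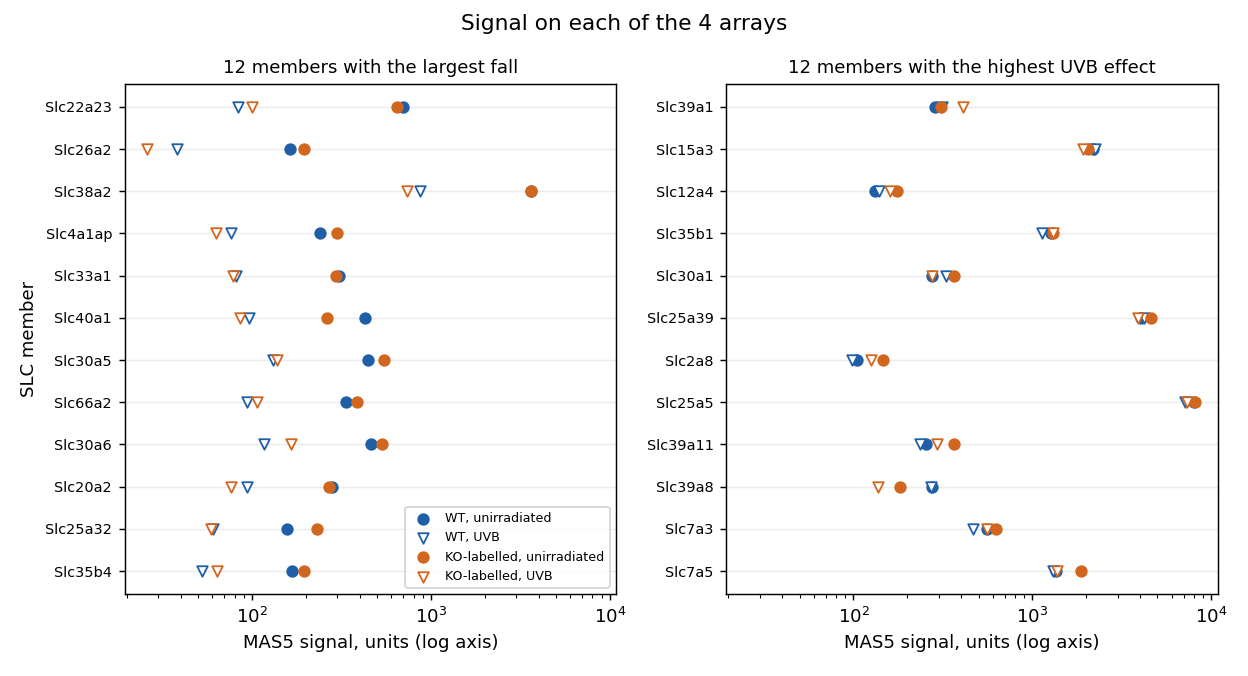
MAS5 signal on a log axis is plotted on the x axis for the 12 SLC genes with the largest limma UVB falls (left) and the 12 with the highest UVB effects (right), 1 gene per row, with circles for unirradiated and triangles for irradiated arrays and colour for genotype. On the left all irradiated arrays lie below all unirradiated ones, and on the right they overlap for 9 of the 12, all but Slc39a1, Slc7a3 and Slc25a5.

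For 120 of the 122 genes the response differed by less than 1 on the log2 scale between the genotypes. Across the 122 SLC genes the UVB difference in WT and in KO-labelled cells, which come from separate arrays, had a Pearson r of 0.84 and a Spearman rho of 0.83, against 0.88 and 0.87 over the 7549 genes at or above 100 units. All points share the array-wide shift and the same 4 arrays.

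**Figure D3:**
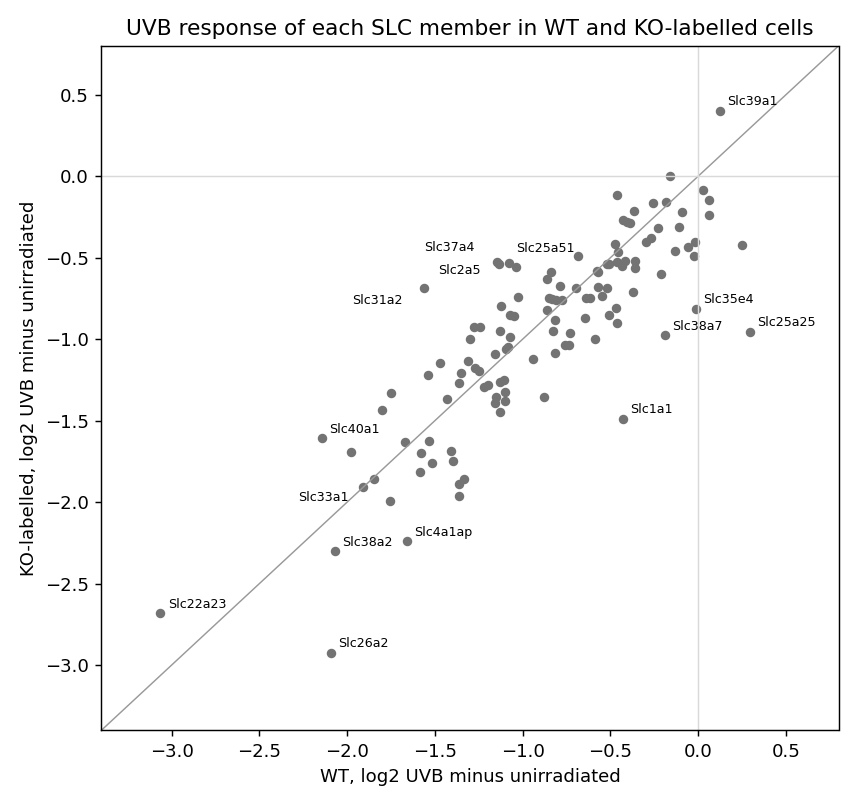
Each point is 1 of the 122 SLC genes, with the log2 UVB difference in WT on the x axis and in KO-labelled cells on the y axis, and the diagonal marks equal differences. The cloud runs along the diagonal at a Pearson r of 0.84, and Slc25a25 and Slc1a1 lie furthest below it while Slc31a2 lies furthest above.

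The UVB response differed by at least 1 on the log2 scale between genotypes for 2 SLC genes, both lower in KO-labelled cells. This share of 1.64% compares with 1.44% of genes at or above 100 units and 2.94% of all genes tested, and 0 SLC genes lay at 1 or more in the other direction, against 0.57% and 1.34%. Slc25a25, a calcium-regulated carrier of ATP-magnesium and phosphate in mitochondria, read 210.1, 258, 232 and 120.0 units. Its UVB difference was 0.30 in WT but -0.95 in KO-labelled cells, a difference of -1.25, and the irradiated KO-labelled array stood apart below the other 3. Its other 2 probe sets lay near or below the floor on most arrays and bear on neither response. Slc1a1 differed by -1.06, and by -1.81 or less and -1.30 on its other probe sets. The highest difference in the other direction was 0.88 for the copper carrier Slc31a2, whose irradiated WT array was the lowest of the 4, and 0.28 on its other probe set.

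Below that size, the response was lower in KO-labelled cells for Slc26a2 (-0.83), Slc35e4 (-0.80) and Slc38a7 (-0.79), and higher for Slc37a4 (0.62), Slc2a5 (0.59) and Slc25a51 (0.54). For Slc26a2 the irradiated KO-labelled signal of 25.9 units lay just above the floor of 24.9 units. Its probe set at 77.1 units gave 0.24, and its dimmest, below the floor on that array, gave -0.401. Among other probe sets with a mean at or above the floor, that of Slc25a51 gave -0.05 and that of Slc35e4 gave -0.31. The direction was therefore not shared for Slc25a51. The glucose uptake inhibitor Txnip, from the list of glucose use genes, had the highest difference of responses of all 11379 genes tested on the deposited values, 2.09. After quantile normalisation and after median centring another gene held that place. Txnip read 485, 220.1, 263 and 509 units, so UVB signal was lower in WT (-1.14) and higher in KO-labelled cells (0.95). No term for a difference of responses could be tested with 4 arrays.

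Between genotypes, few SLC genes differed by 2-fold. Without irradiation the KO-labelled signal was lower by 2-fold or more for 2 genes (1.64%), against 0.411% of genes at or above 100 units and 0.729% of all genes tested, and 0 were higher, against 0.57% and 1.63%. After UVB 3 (2.46%) were lower, against 1.44% and 1.47%, and 1 (0.82%) was higher, against 1.19% and 1.41%. The median difference of the 122 genes was 0.17 without irradiation and 0.11 after UVB, beside 0.15 and 0.08 for genes at or above 100 units. In the limma fit 2 SLC genes were lower (1.64%, against 0.914% and 0.642%) and 0 were higher (against 1.38% and 0.967%), and at an unadjusted p below 0.05 limma gave 10 lower (8.2%, against 4.41% and 3.74%) and 21 higher (17.2%, against 16.9% and 13.7%).

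Slc1a1 (EAAT3), which imports glutamate, aspartate and cysteine, was the most reduced of the 122 genes in KO-labelled cells. It read 438, 325, 108 and 38.5 units, so both KO-labelled arrays lay below both WT arrays, by 4.06-fold without irradiation and 8.45-fold after UVB. The 2 KO-labelled arrays alone average below 100 units, so Slc1a1 passed the signal limit through its WT arrays. The choice of genes by mean signal therefore bears on its place here. The limma effect of genotype was -2.55 ± 0.24 (adjusted p = 0.0021). Its 2 other probe sets gave -1.57 and -1.20 without irradiation and -3.38 or less and -2.50 after UVB. The first of the latter pair is a bound, since the irradiated KO-labelled signal of 24.2 units lay below the floor.

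Slc6a14 (the B0,+ system carrier), a sodium- and chloride-coupled carrier of neutral and cationic amino acids, read 554, 402, 242 and 168 units. KO-labelled signal was lower by 2.29-fold unirradiated and by 2.39-fold irradiated, with an effect of -1.22 ± 0.14 (adjusted p = 0.0052), and its other probe set gave -1.17 and -2.38. Both calls were lost without the intensity trend in limma (adjusted p = 0.27 for each) and when genotype was the only term (adjusted p = 1.0 for each). Slc6a14 lies on chromosome X, and Xist, the RNA that coats the inactive X chromosome and a gene chosen after its values were seen, read 376, 76.7, 48.3 and 26.6 units. Of the 6 SLC genes on that chromosome, 3 were lower and 3 higher in KO-labelled cells in both conditions. The part of the Xist difference in the Slc6a14 result was not tested.

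The next lowest genes did not pass on the deposited values. Slc39a8 had an effect of -0.79 ± 0.17 (adjusted p = 0.058), and Slc2a3 of -0.72 ± 0.16 (adjusted p = 0.061). Both passed after quantile normalisation and after median centring. The chosen Slc2a3 probe set is marked as matching more than 1 transcript. Without such probe sets the effect was 0.30, from a dim probe set at a mean of 33.6 units. Its irradiated KO-labelled signal of 10.1 units lay below the floor, and it gave 0.61 without irradiation and -0.01 after UVB. The other Slc39a8 probe set, at a mean of 95.8 units, gave -1.54 without irradiation and -1.18 after UVB. Slc25a25 was lower by 2.15-fold after UVB alone, at -1.11, beside 0.15 without irradiation. Slc37a4 was the 1 gene that was 2-fold higher in KO-labelled cells after UVB, at 1.01, beside 0.40 without irradiation, and it has 1 probe set.

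The remaining named differences were smaller than 2-fold. Without irradiation the SGLT1 gene Slc5a1 (-0.73) and the ferroportin gene Slc40a1 (-0.70) were among the lowest, and Slc38a7 (0.62), Slc25a32 (0.57) and Slc39a11 (0.52) the highest. After UVB the arginine carrier Slc7a1 stood at 0.69, Slc31a2 at 0.95 and Slc39a10 at 0.62. None of these passed for genotype on the deposited values.

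Markers of differentiation and of other cells also differed between the cultures. Of 14 keratinocyte markers, limma called the suprabasal keratins Krt1 and Krt10 higher and the cornified envelope gene Lor lower in KO-labelled cells. The summed signal of 15 fibroblast markers was 4875, 3719, 9094 and 6163 units, and 7 of the 15 were higher in KO-labelled cells in the limma fit. That of 9 melanocyte markers was 6318, 4908, 8843 and 5706 units, with 0 of 9 passing. That of 9 leukocyte markers was 509.7, 576, 386 and 368 units. Only Cd74, Lyz2 and Cd68 reached the floor, and Ptprc, Cd3e and Cd207 read at most 17.9 units on any array. Bulk signal cannot tell fewer cells of a type from less RNA per cell. The part of these cells in the genotype differences of Slc1a1, Slc6a14 and the other carriers was not tested.

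**Figure D4:**
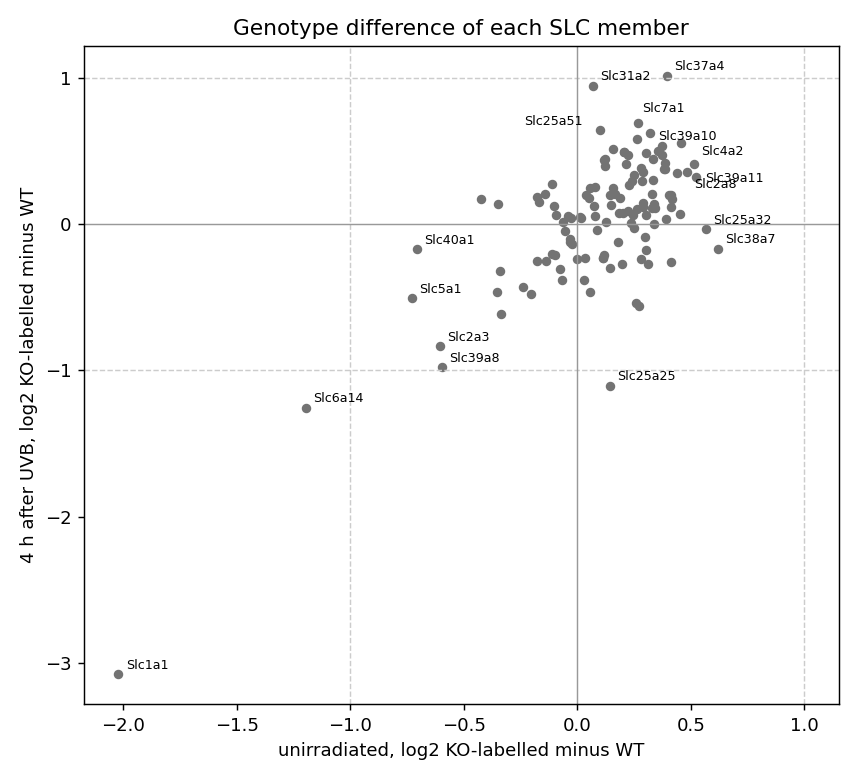
The log2 difference KO-labelled minus WT is plotted for each of the 122 SLC genes, without irradiation on the x axis and 4 h after UVB on the y axis, with dashed lines at a 2-fold difference. Slc1a1 and Slc6a14 lie beyond the line on both axes, and Slc25a25 and Slc37a4 beyond it after UVB alone.

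The UVB difference varied with the length of the gene. Across the 122 SLC genes the Spearman rho between gene span in RefSeq and the UVB difference was -0.31 for WT and -0.36 for KO-labelled cells, and -0.26 in both after quantile normalisation. Over 7538 genes at or above 100 units it was -0.40 and -0.37. The 41 shortest SLC genes (2346 to 15372 bases) had medians of -0.52 and -0.59, with 10 at least 2-fold lower in WT and 10 in KO-labelled cells. The 41 of middle length had medians of -1.05 and -0.96, with 21 and 18 at least 2-fold lower. The 40 longest (32110 to 405350 bases) had medians of -1.08 and -0.99, with 24 and 19 at least 2-fold lower. Genes at or above 100 units in the same 3 ranges had medians of -0.45, -0.75 and -1.06 in WT and -0.56, -0.86 and -1.08 in KO-labelled cells. Their 2-fold counts by range were not made, so the SLC counts by length have no background. Over all lengths, 36.5% of genes at or above 100 units in WT and 39.8% in KO-labelled cells were at least 2-fold lower. The longest of all, Slc39a11 (chr11:113244851-113650200) was at -0.11 and -0.31. The shorter Slc26a2 was at -2.09 and -2.92. Genes share the 4 arrays and are not independent replicates.

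**Figure D5:**
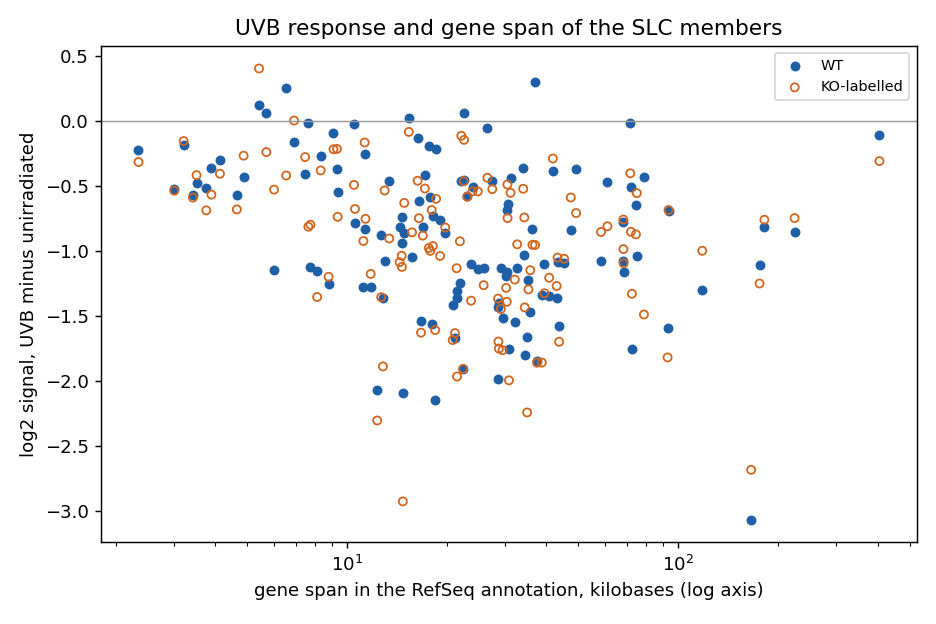
Gene span in kilobases on a log axis is plotted against the log2 UVB difference for the 122 SLC genes, with filled points for WT and open points for KO-labelled cells. The 41 shortest genes centre on -0.52 in WT and the 40 longest on -1.08, and the longest genes include both Slc22a23, at -3.06 in WT, and Slc39a11, at -0.11.

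Neighbouring carriers are given side by side. Within 100 kilobases, Slc38a1 and Slc38a2 on chromosome 15 had UVB differences in WT of -0.51 and -2.07, and Slc25a15 and Slc20a2 on chromosome 8 of -0.58 and -1.59. The copper carriers Slc31a2 and Slc31a1 on chromosome 4 had -1.56 and -0.44 in WT and -0.68 and -0.55 in KO-labelled cells. Slc35b2 and Slc29a1 on chromosome 17 had -0.52 and -0.82 in WT, and Slc7a6 and Slc7a6os on chromosome 8 had -0.68 and -0.02. The order within a pair depended in part on the probe set. On their other probe sets Slc31a2 stood at -0.58 in WT and Slc31a1 at -0.99, and Slc25a15 at -2.07 and Slc20a2 at -0.84, both in reverse order. In WT Slc38a1 stood at -1.43 on its other probe set and Slc38a2 at -1.37 and -0.70. Slc7a6 and Slc7a6os, at -0.49 and -0.27, kept their order, as did Slc35b2, at 0.21. These 5 pairs are all the pairs of SLC genes that lie within that distance, and the differences between neighbours were not tested.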

How the data were processed

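Signal intensities were deposited as a table of 45101 Affymetrix probe sets on 4 arrays, made with MAS5 per the submitters' processing notes. The labels describe Trizol extraction, column cleanup and amplification from 0.2 ug of total RNA. They do not say whether the cultures came from separate animals. The number of arrays limits precision. Of the probe sets, 64 are controls, 34958 carry 1 gene symbol, 932 several and 9211 none. The brightest probe set stood for each gene. Values below 24.9 units were raised to that floor and log2 transformed. Differences between single arrays had no test, and 2-fold was the call. An additive fit (limma 3.58.1, R 4.3.3) with an intensity trend and Benjamini-Hochberg adjustment over 11379 genes was tested on simulated data. Alternatives changed scaling, floor, fold, probe sets and model terms. Values on all arrays are printed for the SLC genes with the largest effects in each comparison (12 per direction for UVB, 10 for the others), the 3 brightest of each class and those nearest the limit. Genes and lists were chosen with earlier results of these data known.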

Additional observations from a re-analysis of the deposited data

Results flagged for a closer look

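Slc25a25, the mitochondrial carrier of ATP-magnesium and phosphate, was higher after UVB in WT and lower in KO-labelled cells, and the response in KO-labelled cells minus that in WT was -1.25 on the log2 scale. For the sulfate carrier Slc26a2, KO-labelled signal was higher without irradiation and lower after UVB, and the difference between those 2 contrasts was -0.83. The kanadaptin gene Slc4a1ap showed the same change of sign, with a difference of -0.58. Each direction rests on 1 array per group, and none of the 3 differences was tested. The other probe sets of Slc25a25 lay near or below the floor and bear on neither direction. For Slc26a2 the probe set at 77.1 units stood at 0.23 for KO-labelled against WT after UVB, and its difference between the contrasts was 0.24.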

How the results depend on the processing

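Scaling moved the UVB results most. After quantile normalisation, 5 SLC genes were 2-fold higher and 7 lower in WT, and 1 higher and 5 lower in KO-labelled cells. KO-labelled against WT after UVB then gave 0 higher, the difference of responses 1 lower, and limma 29 higher and 22 lower for UVB and 4 lower for genotype. After median centring the counts were 10 higher and 4 lower in WT, 4 higher and 4 lower in KO-labelled cells, 0 higher for genotype after UVB and 1 lower for the difference of responses. Limma then gave 49 higher and 18 lower for UVB and 4 lower for genotype. Among the 12 largest falls and the 12 highest effects, the limma UVB effect changed sign, at quantile normalisation and median centring in that order, for Slc15a3 (0.40, 1.07), Slc12a4 (1.001, 1.06), Slc35b1 (0.48, 1.02), Slc30a1 (0.82, 1.02), Slc25a39 (0.19, 1.01), Slc2a8 (0.92, 0.95), Slc39a11 (0.72, 0.89), Slc39a8 (0.78, 0.89), Slc7a3 (0.56, 0.89) and Slc7a5 (0.27, 0.85), and at centring alone for Slc25a5 (0.93). At a 1.5-fold threshold 85 genes were lower after UVB in KO-labelled cells, KO-labelled against WT gave 1 higher and 6 lower unirradiated and 6 higher and 6 lower irradiated, and the responses differed upward for 3 and downward for 7. The floor at the 25th percentile gave 2 higher and 4 lower for genotype in limma. Limma without the intensity trend, or with only the tested factor, gave 0 lower for genotype in each case. Averaging probe sets gave 2 higher in KO-labelled cells unirradiated, 2 irradiated, and 1 upward and 4 downward differences of responses, and Slc25a39 stood at 0.067 for UVB. Without probe sets marked as matching more than 1 transcript, limma gave 1 higher for UVB, Slc25a39 at 0.52. The genotype effect of Slc2a3 then stood at 0.30, on a probe set near the floor at a mean of 33.6 units. The 2 genotype calls, Slc1a1 and Slc6a14, kept their direction under each alternative run. No paired analysis was possible because each group has 1 array and the labels give no replicate numbers. The cause of these changes was not tested.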
